A study of Mus musculus with 16 samples.

Results

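The genes described here are 7 listed genes of MHC class II antigen presentation, H2-Aa, H2-Ab1, H2-Eb1, H2-DMa, H2-DMb1, Cd74 and Ciita. They were chosen by name, with earlier results of these data known but by no measured value, from the 55487 genes of a liver RNA-seq table, and all 7 were found there by Ensembl identifier. Livers came from wild type C57BL/6J mice, 12 weeks old by the labels, in 4 groups of 4 libraries: sustained hypoxia, intermittent hypoxia, overlap hypoxia and room air. Overlap hypoxia combines both kinds of exposure; intermittent hypoxia is in use as a model of sleep apnoea, and sustained hypoxia as one of chronic lung disease. All groups share the strain, age and genotype and carry no transgene by their labels. The sources used here do not give oxygen levels or exposure times. Whole liver was sequenced, so each value is an average over hepatocytes and the much rarer cells that present antigen.

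MHC class II molecules are heterodimers of an alpha and a beta chain that display peptides from endosomes to CD4 T cells. The invariant chain, encoded by Cd74, fills the groove of a new heterodimer and carries it to endosomes, where cathepsins and other proteases cut it down, and H2-DM then exchanges the remaining fragment for a peptide. In a resting liver the pathway is known from Kupffer cells, dendritic cells and B cells, and hepatocytes have little of it. H2-Aa and H2-Ab1 encode the chains of I-A, the only classical class II molecule at the surface in C57BL/6 mice. H2-Eb1 encodes the I-E beta chain, whose alpha partner H2-Ea is defective in this strain. H2-DMa and H2-DMb1 encode the chains of the H2-DM exchange factor. Ciita encodes the class II transactivator, a coactivator that binds no DNA itself and is recruited by factors on the X and Y boxes of class II promoters.

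H2-Aa and H2-Eb1, the pair of genes here with the highest Pearson correlation of levels over the libraries, are shown with the stretch just before their RefSeq start, since both carry the boxes at which Ciita is recruited. The sequences are RefSeq's on GRCm38.p6, 5′ to 3′ on the gene's strand, with letters matching a searched motif in capitals.
H2-Aa, chr17:34287824-34287973, minus strand: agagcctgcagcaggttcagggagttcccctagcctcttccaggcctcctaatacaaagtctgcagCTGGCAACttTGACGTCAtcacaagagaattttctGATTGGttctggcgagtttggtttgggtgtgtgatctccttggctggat
H2-Eb1, chr17:34305717-34305866, plus strand: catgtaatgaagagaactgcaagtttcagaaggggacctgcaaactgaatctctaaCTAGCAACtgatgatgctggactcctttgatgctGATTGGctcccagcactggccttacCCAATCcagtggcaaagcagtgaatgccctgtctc

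The motifs searched on both strands were an X box core, CTNGNAAC, a Y box core, GATTGG, and the palindrome TGACGTCA, a cAMP response element. No match of 1 motif in these stretches overlapped a match of another. The letters of the X box core were settled with these promoters in view, so that the matches are a description only. In H2-Aa the X box core began 84 bases before the start and the Y box core 49 bases before it, with 27 bases between them. In H2-Eb1 the corresponding positions were 94 and 60 bases, with 26 bases between. H2-DMb1 held the same order at 97 and 62 bases before its RefSeq start, also with 27 bases between, but GENCODE M21 starts this gene earlier, so that both cores lie inside the gene it annotates. Of 32851 RefSeq stretches of the same 150 bases before a start, 6.79% held an X box core, 10.9% a Y box core and 1.36% TGACGTCA. An X box core followed by a Y box core on the same strand after 15 to 30 bases was found in 17 of them, or 0.0517%. In the 150 bases before either RefSeq start of H2-DMa, both inside the longer GENCODE gene, none of the 3 motifs was matched. H2-Ob, which encodes a chain of the H2-DM inhibitor H2-O, also held the X and Y cores in this order, with 24 bases between. H2-Eb2 held both cores in the opposite order, the Y core 101 and the X core 12 bases before its start. H2-DMb2 and H2-Oa held a Y core and no X core. No stretch of H2-Ab1, Cd74, Ciita or H2-Ea was examined here.

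Library totals ran between 10940275 counts in overlap hypoxia replicate 3 and 64789635 in sustained hypoxia replicate 2. Although the protocol text names retina, the liver gene Alb lay at no less than 36132 CPM in any library, and the photoreceptor gene Rcvrn was at 0 in every library. Gnat1, also a photoreceptor gene, lay between 2.80 and 10.6 CPM. Levels are given in CPM, counts scaled to a common library size after TMM normalisation in edgeR. The share of counts in ribosomal RNA genes was 2.16% ± 0.698 in sustained hypoxia, 25.2% ± 6.996 in intermittent hypoxia, 9.59% ± 5.82 in overlap hypoxia and 5.22% ± 3.71 in room air (SD, n = 4 each). No intermittent library was below 18.5% and no room air library above 10.2%, so this share and intermittent exposure cannot be told apart here. A gene was called at an adjusted p under 0.05 in edgeR's quasi-likelihood test with Benjamini-Hochberg adjustment over the 14553 genes that passed a filter on low counts. All 7 class II genes passed it, in the case of Ciita with 0 to 30 counts in a library.

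Set side by side per kilobase of exon, the level of H2-Ab1 in room air was 15.9 ± 7.18 CPM per kb, that of Cd74 12.9 ± 4.62, of H2-Eb1 12.1 ± 6.00 and of H2-Aa 7.62 ± 2.42 (SD, n = 4). The H2-DM chains were lower, at 2.14 ± 0.848 CPM per kb for H2-DMb1 and 0.685 ± 0.269 for H2-DMa. Ciita, the transactivator, was lowest at 0.0376 ± 0.0277 CPM per kb. The first 4 genes of this order overlapped in their spread. The 5 chain genes lie in the H2 region of chromosome 17 (GRCm38), Ciita on chromosome 16 and Cd74 on chromosome 18.

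**Figure D1:**
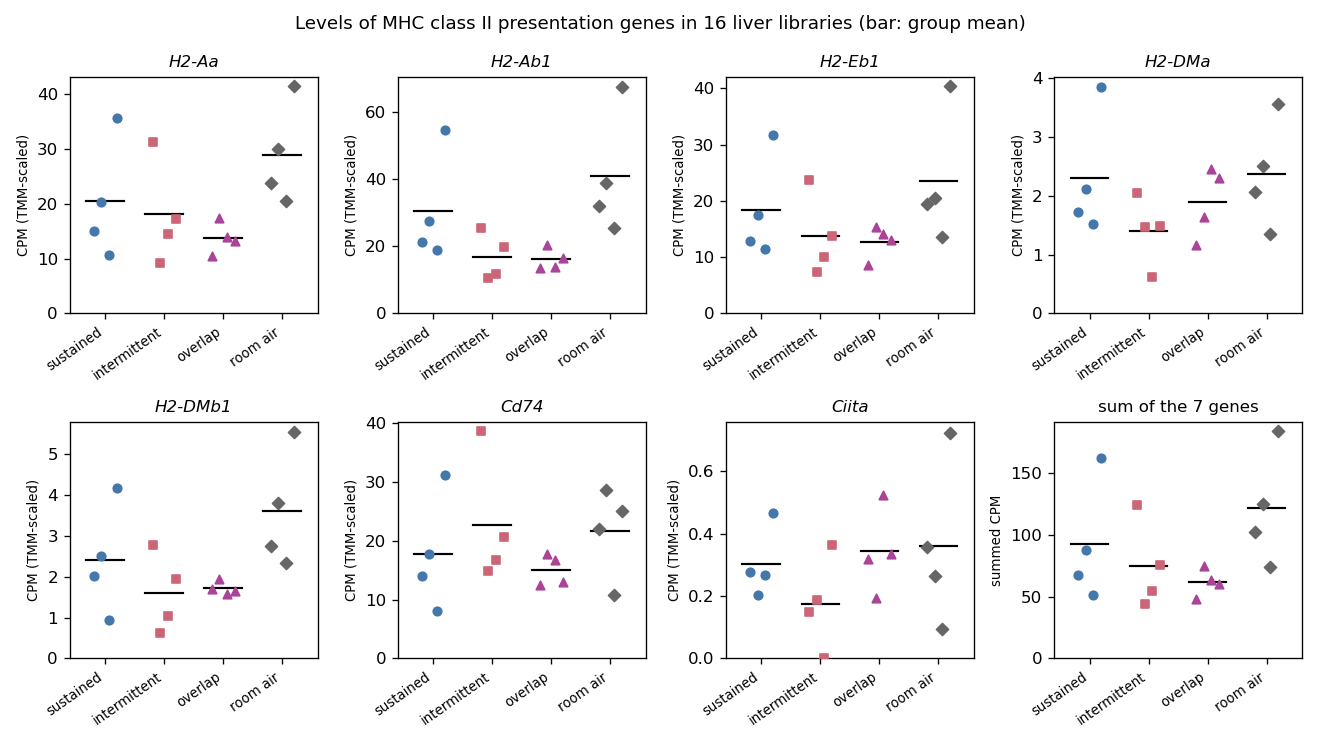
CPM of each of the 7 genes, and their sum, in every library, by group; points are libraries and the bar is the mean of 4. The summed level is 51.7 to 161.6 CPM in sustained, 44.4 to 124.0 CPM in intermittent and 48.3 to 74.8 CPM in overlap hypoxia, against 74.0 to 183.9 CPM in room air.

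Intermittent hypoxia was the exposure in which class II genes passed the test, after adjustment over all genes of a comparison. An unadjusted p under 0.05 was found there for 2 of the 7, against 46.2% of all tested genes. In overlap hypoxia it was found for 3 of the 7, against 22.8%. The log2 fold change of H2-Ab1 was -1.27 in intermittent and -1.34 in overlap hypoxia. H2-Ab1, the beta chain of I-A, and H2-DMb1, the beta chain of H2-DM, fell in intermittent hypoxia, 2.41-fold and 2.21-fold, while Cd74, the invariant chain, was at 22.8 ± 10.9 CPM in intermittent hypoxia and 21.6 ± 7.75 CPM in room air (SD, n = 4 each). These 2 of 7 genes stand against 18.3% of all tested genes that were lower in the same comparison, and none of the 7 was higher, against 18.9% of all tested genes. The median log2 fold change of the 7 was -0.77, against 0.03 over all genes tested. In bulk liver, fewer cells of a type and less RNA per cell cannot be told apart.

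H2-Ab1 had 25.5, 10.7, 11.7 and 19.7 CPM in the intermittent libraries, against 32.01, 38.9, 25.5 and 67.4 CPM in the room air libraries. The highest intermittent library, replicate 1, lay just above the lowest room air library, replicate 3, so the groups touched at a single pair of libraries. The log2 fold change was -1.27 (SE 0.39, edgeR adjusted p = 0.0216). H2-DMb1 had 2.78, 0.62, 1.05 and 1.95 CPM in the intermittent libraries, against 2.74, 3.80, 2.32 and 5.52 CPM in room air. Again intermittent replicate 1 reached into the room air range, above replicates 1 and 3 of room air. The log2 fold change was -1.14 (SE 0.42, edgeR adjusted p = 0.0407).

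H2-Aa, the alpha chain partner of H2-Ab1, had 31.1, 9.21, 14.5 and 17.3 CPM in the intermittent libraries, against 23.8, 30.01, 20.6 and 41.4 CPM in room air. A single intermittent library, replicate 1, exceeded 3 of the 4 room air libraries, and the other 3 lay below all of them. Its log2 fold change of -0.68 (SE 0.39) did not pass the test (edgeR adjusted p = 0.198). H2-Eb1, the I-E beta chain, had 23.8, 7.37, 10.04 and 13.8 CPM in the intermittent libraries, against 19.5, 20.6, 13.5 and 40.4 CPM in room air. Its log2 fold change was -0.77 (SE 0.43, edgeR adjusted p = 0.177), again with replicate 1 as the highest intermittent library.

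Cd74 had 38.7, 14.9, 16.8 and 20.7 CPM in the intermittent libraries, against 22.1, 28.7, 10.7 and 25.0 CPM in room air. The groups overlapped widely, and the log2 fold change was 0.08 (SE 0.41, 95% interval -0.81 to 0.96, edgeR adjusted p = 0.901). The value was -0.15 without room air replicate 3 and -0.31 without intermittent replicate 1, neither of which passed. H2-DMa, the alpha chain of H2-DM, lay between 0.61 and 2.04 CPM in intermittent hypoxia and between 1.34 and 3.55 CPM in room air, with a log2 fold change of -0.73 (SE 0.37, edgeR adjusted p = 0.1298). Ciita had 6, 6, 0 and 21 counts in the intermittent libraries and 17, 14, 5 and 30 counts in room air. The count of 0 in intermittent replicate 3 allows a level of up to 0.131 CPM (3 counts), and at these counts the 95% interval of the log2 fold change ran between -2.45 and 0.60.

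The calls of this comparison rested on few libraries. That of H2-DMb1 was lost in 11 of the 16 runs that each left out 1 library, with edgeR adjusted p between 0.0501 and 0.149, and under 5 other settings. Without room air replicate 4, intermittent replicate 2 or intermittent replicate 3, H2-Ab1 had log2 fold changes of -0.92, -1.09 and -1.13 and edgeR adjusted p of 0.0796, 0.0696 and 0.0637. Without intermittent replicate 1, H2-Aa and H2-Eb1 joined H2-Ab1 and H2-DMb1 as called genes, with log2 fold changes of -1.09 and -1.17 (edgeR adjusted p = 0.0363 and 0.0443). With the ribosomal RNA share as a covariate the log2 fold change of H2-Ab1 was -0.26 (edgeR adjusted p = 0.877) and no class II gene passed, while 77 genes in all did, against 5404 without the covariate.

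**Figure D2:**
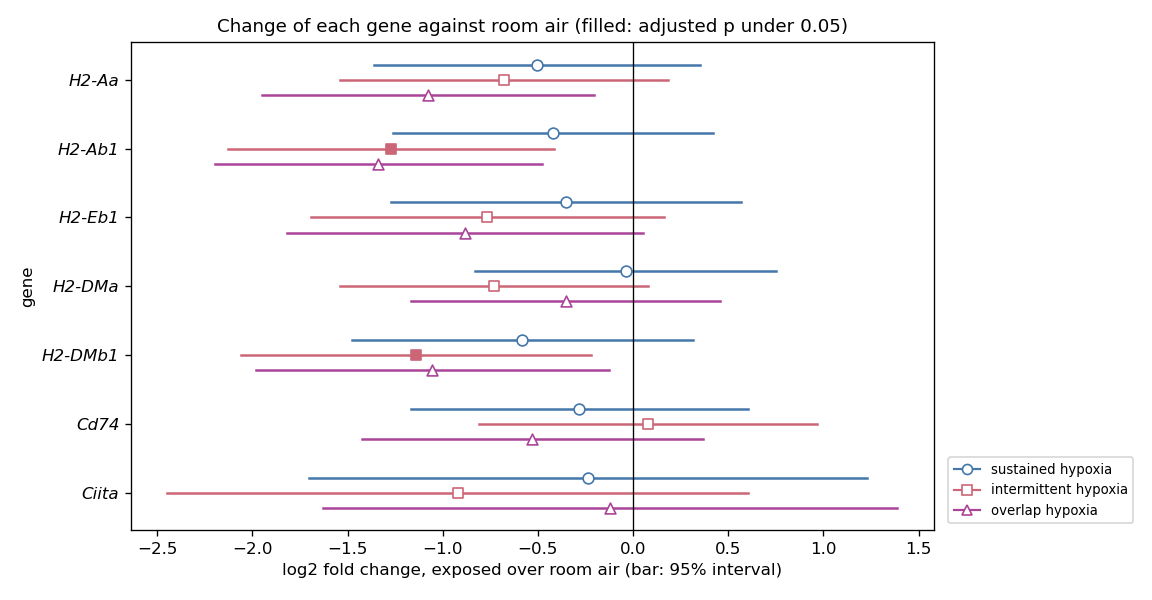
Log2 fold change of each gene in sustained, intermittent and overlap hypoxia over room air, with 95% intervals from the quasi-likelihood fit; filled symbols passed at an adjusted p under 0.05. The filled symbols are H2-Ab1 (-1.27) and H2-DMb1 (-1.14) in intermittent hypoxia.

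In overlap hypoxia none of the 7 genes passed the test, against 6.29% of all tested genes called in either direction, and 3 of the 7 had an unadjusted p under 0.05, against 22.8% of all tested genes. The 7 log2 fold changes were all negative, with a median of -0.88 against 0.03 over all genes. H2-Aa, H2-Ab1 and H2-DMb1 were lower in every overlap library than in every room air library, which held for 7.14% of all tested genes in that direction. The comparisons with room air share the same 4 room air libraries, so that their values do not bear on each other as separate evidence.

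H2-Ab1 had 13.6, 20.4, 13.9 and 16.6 CPM in the overlap libraries, against 32.01, 38.9, 25.5 and 67.4 CPM in room air. The groups did not overlap, and the log2 fold change was -1.34 (SE 0.40, edgeR adjusted p = 0.0608). H2-Aa had 10.48, 17.4, 13.9 and 13.2 CPM in the overlap libraries, against 23.8, 30.01, 20.6 and 41.4 CPM in room air, a log2 fold change of -1.08 (SE 0.40, edgeR adjusted p = 0.127). H2-DMb1 had 1.70, 1.95, 1.57 and 1.65 CPM in the overlap libraries, against 2.74, 3.80, 2.32 and 5.52 CPM in room air, a log2 fold change of -1.06 (SE 0.42, edgeR adjusted p = 0.143). For these 3 genes the overlap libraries were tightly grouped and the room air libraries spread.

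H2-Eb1 lay between 8.56 and 15.4 CPM in overlap hypoxia and between 13.5 and 40.4 CPM in room air, and Cd74 between 12.5 and 17.8 CPM in overlap hypoxia and between 10.7 and 28.7 CPM in room air. Both pairs of ranges overlapped, and the log2 fold changes were -0.88 (SE 0.43) and -0.53 (SE 0.41). H2-DMa and Ciita were at -0.35 (SE 0.37) and -0.12 (SE 0.69). The result for this comparison depended on which libraries shared the fit. Without sustained replicate 4, which enters the fit through the shared spread, H2-Ab1 passed (edgeR adjusted p = 0.0315). Fitted on the overlap and room air libraries alone, H2-Aa, H2-Ab1 and H2-DMb1 passed with edgeR adjusted p of 0.0258, 0.0331 and 0.0455, and DESeq2 on all 16 libraries called H2-Ab1 with an adjusted p of 0.0149.

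In sustained hypoxia none of the 7 genes passed the test, while 0.0481% of all tested genes did, and none had an unadjusted p under 0.05, against 11.5% of all tested genes. The log2 fold changes lay between -0.58 for H2-DMb1 and -0.04 for H2-DMa, with SE between 0.36 and 0.67 (edgeR adjusted p between 0.647 and 0.980). H2-Ab1 had 21.3, 27.6, 18.7 and 54.6 CPM in the sustained libraries, against 32.01, 38.9, 25.5 and 67.4 CPM in room air. Sustained replicate 4 was above 3 room air libraries, and replicates 1 and 3 were below all 4. The 95% interval of its log2 fold change ran between -1.26 and 0.42.

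Between exposures no class II gene passed the test. For overlap against sustained hypoxia, where 0.165% of all tested genes were called, the log2 fold change of H2-Ab1 was -0.92 (SE 0.39, edgeR adjusted p = 0.207). For sustained against intermittent hypoxia, where 38.4% of all tested genes were called, it was 0.85 (SE 0.39, edgeR adjusted p = 0.103), and without intermittent replicate 1 it was 1.12 (edgeR adjusted p = 0.0474). For overlap against intermittent hypoxia, where 6.15% of all tested genes were called, the 7 values lay between -0.61 for Cd74 and 0.80 for Ciita. The departure of overlap hypoxia from the sum of both single log2 changes passed for none of the 7, against 0.454% of all tested genes. In the order of mean H2-Ab1 levels, overlap hypoxia at 16.1 ± 3.14 CPM, intermittent hypoxia at 16.9 ± 7.004, sustained hypoxia at 30.5 ± 16.4 and room air at 40.9 ± 18.4 (SD, n = 4 each), no 2 neighbours differed by the test.

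Ratios of Cd74 to H2-Ab1 did not overlap between 2 of the exposures and room air, although no ratio passed after adjustment. Within a library, the ratio of Cd74 to H2-Ab1 in CPM per kb was 0.881 ± 0.161 in sustained hypoxia, 2.06 ± 0.311 in intermittent hypoxia, 1.44 ± 0.281 in overlap hypoxia and 0.848 ± 0.284 in room air (SD, n = 4 each). Its range was 1.61 to 2.32 in intermittent hypoxia and 1.20 to 1.85 in overlap hypoxia, and 0.568 to 1.13 in room air, so neither exposed group overlapped room air. Sustained hypoxia, at 0.655 to 1.007, lay within the room air range. On the log2 scale the ratio differed by 1.33 in intermittent and 0.81 in overlap hypoxia from room air. Each exact two-sided permutation test gave p = 0.0286, the smallest that 4 against 4 libraries allow, which is 0.0857 after Benjamini-Hochberg adjustment over 45 tests of 15 pairs in 3 comparisons. Over the 15 pairs, in either direction, the ratio did not overlap room air in 3 for sustained, 7 for intermittent and 5 for overlap hypoxia. No such share was taken over all pairs of tested genes, and the 15 pairs reuse the same genes, so these counts are a description only. The ratios were chosen for study with the levels known, and the part of the ribosomal RNA share in them was not tested.

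Either gene can be set against the rest of the table in the same way. Of all other tested genes, 38.4% had a higher ratio to H2-Ab1 in every intermittent library than in every room air library, and 53.3% in the overlap libraries. Set against Cd74, 5.08% of genes had a lower ratio without overlap in intermittent hypoxia and 0.344% in overlap hypoxia. In intermittent hypoxia the ratio of H2-Aa to its partner H2-Ab1 was 0.583 to 0.837, against 0.416 to 0.545 in room air. The log2 difference was 0.50 (exact permutation p = 0.0286, adjusted 0.0857), and in overlap hypoxia it was 0.22 with overlapping ranges (exact permutation p = 0.143, adjusted 0.268).

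**Figure D3:**
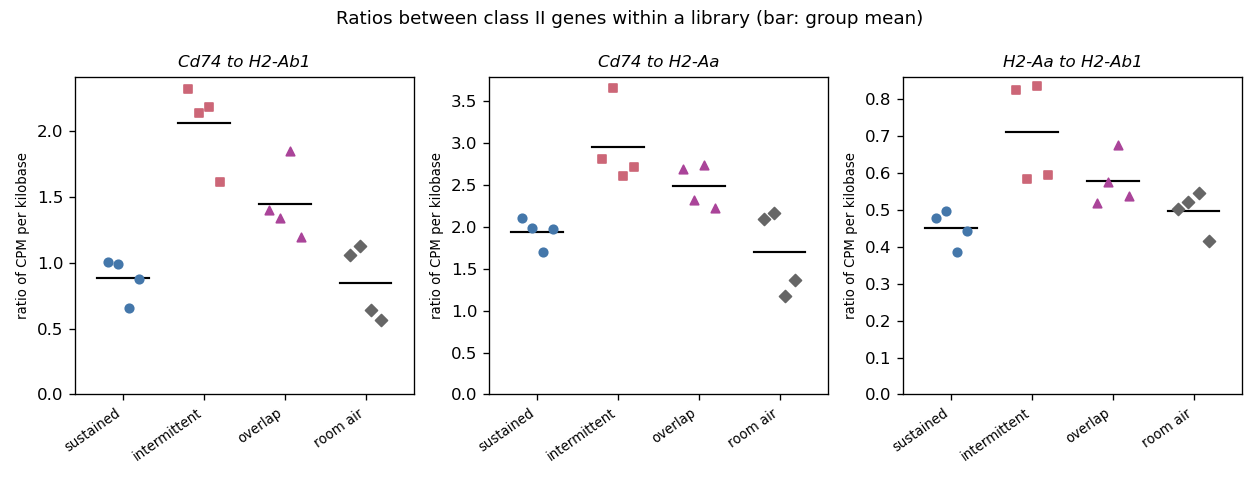
Ratio of CPM per kb of Cd74 to H2-Ab1, of Cd74 to H2-Aa and of H2-Aa to H2-Ab1 within each library, by group; points are libraries and the bar is the mean of 4. The Cd74 to H2-Ab1 ratio is 1.61 or more in the intermittent libraries and 1.13 or less in the room air libraries.

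Libraries of the same group differed widely, and the class II genes differed together. Summed over the 7 genes, sustained replicate 4 had 161.6 CPM and the other sustained libraries at most 88.0, intermittent replicate 1 had 124.0 and the other intermittent libraries at most 75.3, and room air replicate 4 had 183.9 and the other room air libraries at most 124.7. Overlap hypoxia was the most even group, at 48.3 to 74.8 CPM. Over 16 libraries, log2 CPM of H2-Aa and H2-Eb1 had Pearson r = 0.950 and Spearman rho = 0.924. Its permutation p of 1e-05 is the smallest that 100000 resamples can give (adjusted over 21 pairs, 4.2e-05), and r was 0.921 without the 2 libraries farthest from the median of H2-Aa and 0.958 on deviations from the group means. Over the 15 pairs that leave Ciita out, r lay between 0.505 and 0.950, and on deviations from the group means between 0.629 and 0.958.

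Cd74 and H2-Ab1 were among the looser pairs over all libraries, with r = 0.574 and rho = 0.653 (permutation p = 0.0204, adjusted 0.0285), and r = 0.441 without the 2 farthest libraries. On deviations from the group means the same pair had r = 0.839, so within groups they moved together. Ciita followed H2-DMa most closely, with r = 0.801 (rho = 0.615, adjusted permutation p = 0.00098, r = 0.578 without the 2 farthest), and the I-A chains less, with r = 0.244 for H2-Aa. Counts of Ciita were at most 30 in a library, which limits all its values.

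H2-DMa and Ciita each have a neighbour on the opposite strand, and strand is not given for the counting, so reads of such partners cannot be told apart. Exons of Brd2 cover 10.4% of the H2-DMa exons; Brd2 lay between 15.9 and 33.9 CPM over the libraries and rose in intermittent hypoxia (log2 fold change 0.69, SE 0.13, edgeR adjusted p = 0.000307). Exons of Dexi cover 3.45% of those of Ciita, and Dexi lay between 6.18 and 10.3 CPM. Of the 50-base words of H2-DMb1 transcripts, 22.7% also occur elsewhere, most of them in its near copy H2-DMb2, so that the counts of both depend on how shared reads were divided. For H2-Ab1, H2-Eb1, H2-DMa, Cd74 and Ciita no word was shared.

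Other class II chain genes were near the limit of detection. H2-Ea had 0 counts in all libraries and H2-Eb2 at most 3 in a library, and both failed the filter. H2-DMb2, H2-Oa and H2-Ob passed it, with 0 to 67 counts in a library. Against room air 0 of these 3 were called in sustained, intermittent or overlap hypoxia. Over all tested genes the shares called were 0.0481%, 37.1% and 6.29%. The median log2 fold change of the 3 was -0.41 for sustained hypoxia, -0.94 for intermittent hypoxia and -1.19 for overlap hypoxia.

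Of 12 genes for loading and turnover of class II molecules, 6 fell in intermittent hypoxia and 3 in overlap hypoxia, none rose, and none was called in sustained hypoxia. Of all tested genes, 2.89% fell in overlap hypoxia and the 18.3% already given in intermittent hypoxia, and 0.0481% were called in sustained hypoxia. With the ribosomal RNA share as a covariate none of the 12 was called in intermittent hypoxia and 2 were in overlap hypoxia. The median log2 fold change of the 12 was -0.43 in intermittent and -0.26 in overlap hypoxia. Lgmn, an asparaginyl endopeptidase of endosomes, was at 10.1 ± 1.20 CPM in intermittent hypoxia and 30.2 ± 5.51 CPM in room air (SD, n = 4 each; log2 fold change -1.58, SE 0.17, edgeR adjusted p = 5.84e-06). Ctss, the cathepsin that makes the last cuts in the invariant chain, was at 5.80 ± 1.71 CPM in intermittent hypoxia and 13.2 ± 2.45 CPM in room air (log2 fold change -1.19, SE 0.21, edgeR adjusted p = 0.000273). Ctsd and Lamp1, a cathepsin and a lysosomal membrane protein, were next by p, with log2 fold changes of -0.73 and -0.59. In overlap hypoxia Ctss, Lgmn and Ctsb fell, with log2 fold changes of -1.44, -1.05 and -0.49 (edgeR adjusted p = 0.00213, 0.00290 and 0.0288). The overlap call of Ctsb was lost in 6 of the 16 runs without 1 library.

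Genes listed as class II promoter factors were in part higher in intermittent hypoxia, but the list includes Nlrc5, which is not a class II factor. Of the 9 listed genes 5 rose, Nlrc5 among them, and none fell, against 18.9% and 18.3% of all tested genes. Their median log2 fold change was 0.82. Nlrc5, a relative of Ciita that acts on class I promoters, was at 10.03 ± 2.37 CPM in intermittent hypoxia and 3.22 ± 1.03 CPM in room air (log2 fold change 1.64, SE 0.24, edgeR adjusted p = 4.94e-05). Nfyc, a subunit of the factor on the Y box, had a log2 fold change of 1.03 (SE 0.20), Rfx5, a subunit of the factor on the X box, 1.86 (SE 0.48), and Creb1, which binds cAMP response elements, 0.82 (SE 0.22); their edgeR adjusted p were 0.000527, 0.00527 and 0.00596. None of the 9 was called in sustained or overlap hypoxia, against 0.0481% and 6.29% of all tested genes. With the ribosomal RNA covariate none of the 9 was called in intermittent hypoxia. Over all tested genes, gene length and log2 fold change in intermittent hypoxia had a Spearman rho of 0.257 across 14540 genes, which are not independent replicates; its part in these values was not tested.

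**Figure D4:**
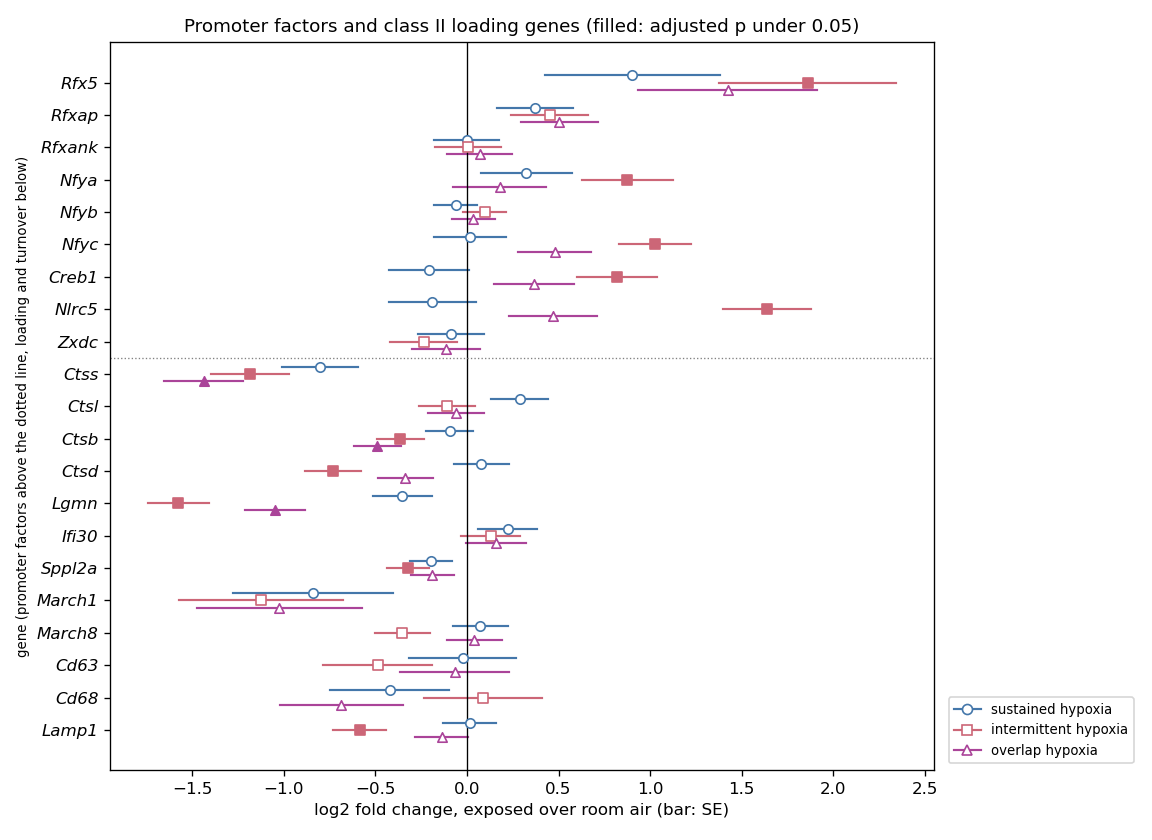
Log2 fold change over room air, with SE, in sustained, intermittent and overlap hypoxia. Above the dotted line are 9 genes listed as class II promoter factors, among them Nlrc5, which acts on class I promoters. Below it are 12 genes of class II loading and turnover. Filled symbols passed at an adjusted p under 0.05. In intermittent hypoxia 5 genes of the promoter list, Nlrc5 included, are filled to the right of 0 and 6 loading genes to the left of it.

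Genes around the pathway did not move one way, and with the ribosomal RNA covariate none of their genes was called in intermittent hypoxia. Of 8 tested genes of interferon gamma signalling, the main inducer of Ciita, 2 fell in intermittent hypoxia, against 18.3% of all tested genes, namely both receptor chains, Ifngr1 (log2 fold change -0.73, edgeR adjusted p = 0.00347) and Ifngr2 (-0.97, edgeR adjusted p = 0.000420). Ifngr1 also fell in overlap hypoxia (-0.61, edgeR adjusted p = 0.0473), a call lost in 12 of the 16 runs without 1 library and under 3 other settings. Of 5 tested costimulation genes only Cd86, a ligand of CD28, was called, in intermittent hypoxia, where 18.3% of all tested genes fell. Its log2 fold change there was -1.66 (SE 0.62, edgeR adjusted p = 0.0449). That call was lost in 9 of the 16 runs without 1 library and under 5 other settings. Of 13 genes of MHC class I presentation 2 rose and 6 fell in intermittent hypoxia, against 18.9% and 18.3% of all tested genes. Without room air replicate 4, 3 fell, and without room air replicate 3, 1 rose. B2m, the light chain of class I, rose (log2 fold change 0.77, edgeR adjusted p = 0.00303), and Pdia3 and Canx, which fold and load class I in the endoplasmic reticulum, fell (-0.94 and -0.99, edgeR adjusted p = 0.000142 and 0.000286). In overlap hypoxia, where 2.89% of all tested genes fell, Pdia3 was the only one of the 13 called (-0.61, edgeR adjusted p = 0.0262). Its call was lost without room air replicate 1, 3 or 4 or overlap replicate 3.

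Markers of the cells that present antigen moved beside the class II genes in part. Of 10 Kupffer cell markers 9 fell in intermittent hypoxia, against 18.3% of all tested genes, with a median log2 fold change of -1.23. The same number fell in overlap hypoxia, against 2.89% of all tested genes, with a median of -1.63. None was called in sustained hypoxia (median -0.66), against 0.0481% of all tested genes. With the ribosomal RNA covariate 0 of the 10 were called in intermittent hypoxia and 8 in overlap hypoxia. Their summed level was 83.0 to 152.9 CPM in sustained hypoxia, 43.5 to 95.5 CPM in intermittent hypoxia, 50.4 to 60.2 CPM in overlap hypoxia and 118.0 to 220.2 CPM in room air. Clec4f, a lectin of Kupffer cells, had log2 fold changes of -1.45 in intermittent and -1.68 in overlap hypoxia (edgeR adjusted p = 0.00113 and 0.00659). Sustained replicate 4, intermittent replicate 1 and room air replicate 4, the highest of their groups in class II, were also the highest in Kupffer markers. This did not hold in overlap hypoxia, where replicate 2 was highest in class II, at 74.8 CPM. Its Kupffer sum was 53.9 CPM, below the 60.2 CPM of replicate 4. The part of Kupffer cell content in the class II values was not tested.

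Of 8 tested monocyte and general myeloid markers 3 fell in intermittent hypoxia, against 18.3% of all tested genes. In overlap hypoxia 3 fell, against 2.89%. With the ribosomal RNA share as a covariate the 3 calls in intermittent hypoxia were lost and the 3 in overlap hypoxia were kept. The summed level of the listed markers was 43.9 to 71.0 CPM in sustained and 27.5 to 48.4 CPM in intermittent hypoxia. It was 27.4 to 36.8 CPM in overlap hypoxia and 73.5 to 130.3 CPM in room air. The sum of 8 B cell markers was 5.11 to 18.3 CPM in sustained and 6.78 to 10.2 CPM in intermittent hypoxia. It was 3.67 to 8.78 CPM in overlap hypoxia and 11.9 to 16.8 CPM in room air. Of 5 tested, Ms4a1 alone was called, in intermittent hypoxia (log2 fold change -2.28, SE 0.72, edgeR adjusted p = 0.0172), where 18.3% of all tested genes fell. That call was lost without room air replicate 2 or intermittent replicate 2, and with the ribosomal RNA share as a covariate. The 10 dendritic cell markers did not share that pattern. They summed to 2.32 to 3.38 CPM in sustained, 4.57 to 5.54 CPM in intermittent and 1.92 to 3.78 CPM in overlap hypoxia, against 3.05 to 3.96 CPM in room air, and none of 8 tested was called. Flt3, a defining marker of dendritic cells, reached at most 14 counts in a library and was at 0 in some.

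**Figure D5:**
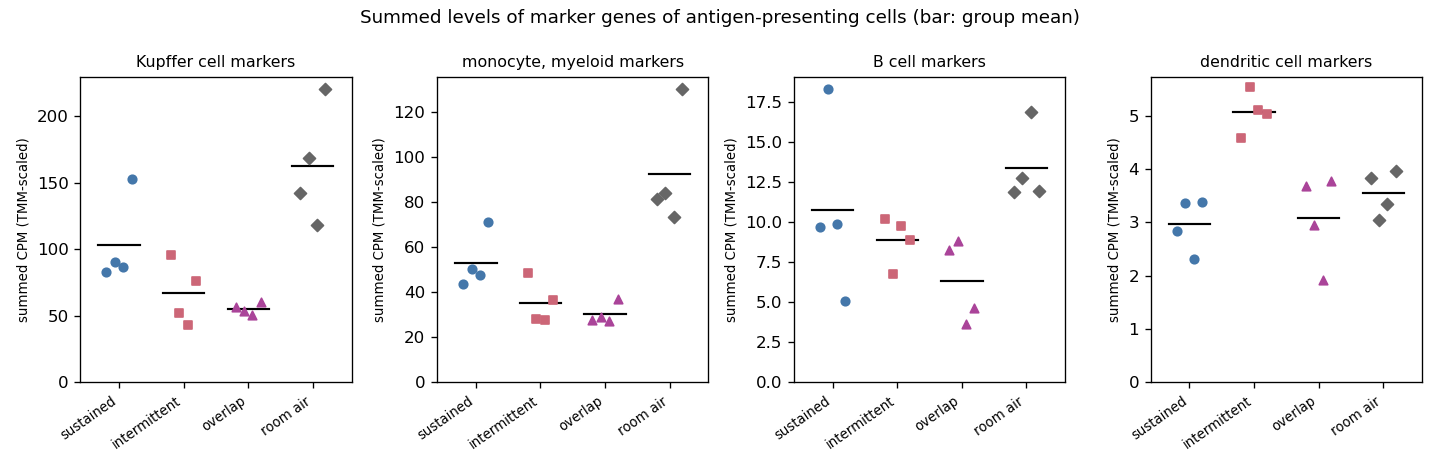
Summed CPM of 10 Kupffer cell, 9 monocyte and general myeloid, 8 B cell and 10 dendritic cell markers in every library, by group; points are libraries and the bar is the mean of 4. The Kupffer sum is at most 60.2 CPM in overlap libraries and at least 118.0 CPM in room air libraries, while the dendritic sum is highest in the intermittent libraries.

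The genes whose pattern was most like that of the class II genes were ranked by Pearson r with the mean of the 7 centred and scaled log2 CPM profiles over the 16 libraries. The 10 named from 12539 ranked genes were Sirpa (r = 0.929), Cyba (0.892), C1qc (0.878), Aif1 (0.865), Gzma (0.864), Coro1a (0.854), Lcp2 (0.854), Rgs2 (0.850), Ckb (0.849) and Cluh (0.846), against a median r of 0.032 over all ranked genes. Sirpa, a receptor of myeloid cells for CD47, had rho = 0.929 and was not called in any comparison with room air (log2 fold changes -0.12, -0.23 and -0.35 in sustained, intermittent and overlap hypoxia). C1qc, a chain of complement C1q, belongs to the Kupffer list. The median r was 0.769 over the 10 Kupffer markers, 0.210 over 5 B cell markers, -0.062 over 8 dendritic cell markers and -0.406 over the 9 promoter factors.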

How the data were processed

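The deposited table holds the authors' expected counts per gene, which are estimates: 49.3% of the nonzero ones are not whole. The submitters' processing notes name the GRCm38 genome, RSEM and Bowtie 1.3.0; they leave the annotation release and strandedness unstated. Per the labels' protocols, 1 ug of total RNA went into an Illumina TruSeq kit.

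Counts were rounded. Symbols and exon lengths came from GENCODE M21, which named 55227 of 55487 identifiers. With edgeR 4.0.16 in R 4.3.3, filterByExpr left 14553 genes, libraries were scaled by TMM, and 7 comparisons came from a robust quasi-likelihood fit of the 16 libraries with a term for each group. A Benjamini-Hochberg adjusted p under 0.05 made a call. CPM are TMM-scaled, and log2 CPM have a prior count of 2. The fit was tested on simulated data. Ratios between genes were compared by exact two-sided permutation tests in SciPy 1.17.1, and correlations by permutation with 100000 resamples. Alternatives were other scalings, no filter, DESeq2 1.42.0, limma-voom (limma 3.58.1) with quality weights, only the groups compared, the replicate number as a block, the ribosomal RNA share as a covariate, removal of ribosomal RNA, mitochondrial and Mup genes, and leaving out each library.

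The 7 genes and all gene lists were chosen with earlier results of these data known, and the ratios after the levels were seen. Every one of the 7 is given. From each list at most 4 called genes in a comparison are named, not always those with the lowest p, and defining markers. The labels do not say that libraries come from separate animals, so the spread behind the p-values, that between these libraries, may be technical. No 2 libraries of the same group were duplicates: chi-square per degree of freedom over 24 pairs within groups was 59.7 or more. Pairs from different groups were not checked in this way. The interval for a count of 0 covers counting error only.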

Additional observations from a re-analysis of the deposited data

How the results depend on the processing

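The calls in intermittent hypoxia against room air were the least stable. Of the 7 class II genes 2 were called, 1 with upper-quartile scaling, without the filter on low counts, with limma-voom and with only the groups compared, 0 with the ribosomal RNA share as a covariate, and 0 to 4 when 1 library was left out. In overlap hypoxia 0 were called, 1 with DESeq2 or the replicate block, 3 with only the groups compared, and 0 to 1 without 1 library. In sustained against intermittent hypoxia 0 were called, and 0 to 1 without 1 library. No alternative changed the count of 0 in the other 4 comparisons. With DESeq2 size factors in edgeR, and without ribosomal RNA, mitochondrial and Mup genes, every member kept its direction and its call in all 7 comparisons.

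With the ribosomal RNA covariate several log2 fold changes changed sign, none of them called before or after except H2-DMb1, which lost its call. Against room air in intermittent hypoxia H2-Aa was at 0.16, H2-Eb1 at 0.16, H2-DMb1 at 0.011 and Ciita at 0.54, and in overlap hypoxia Ciita at 0.37. In overlap against sustained hypoxia Cd74 was at 0.029. In overlap against intermittent hypoxia H2-DMa was at -0.11, H2-DMb1 at -0.76 and Ciita at -0.17. In sustained against intermittent hypoxia H2-Aa was at -0.76, H2-Ab1 at -0.27, H2-Eb1 at -0.62, H2-DMa at -0.10, H2-DMb1 at -0.74 and Ciita at -0.99. In the departure from additivity H2-Aa was at -0.43, H2-Ab1 at -0.28, H2-Eb1 at -0.34 and H2-DMb1 at -0.030. Ciita against room air also changed sign with limma-voom, to 0.069 in sustained and 0.31 in overlap hypoxia, and with the replicate block, to 0.085 in overlap hypoxia. The cause was not tested.

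The count over all genes in sustained hypoxia against room air was 7, and 61 without the filter, 175 with DESeq2, 248 with limma-voom, 91 with only the groups compared, 21 with the block, 4 with the covariate and 2 to 57 without 1 library. In intermittent hypoxia it was 5404, and 77 with the covariate. In overlap hypoxia it was 916, and 1466 with DESeq2, 361 with the covariate and 174 to 1186 without 1 library. In overlap against sustained hypoxia it was 24, and 86 with upper-quartile scaling, 354 without the filter, 896 with DESeq2, 1224 with limma-voom, 2 with only the groups compared, 126 with the block, 0 with the covariate, 57 without ribosomal RNA, mitochondrial and Mup genes and 0 to 1547 without 1 library. In overlap against intermittent hypoxia it was 895, and 1584 with DESeq2, 494 with limma-voom, 0 with only the groups compared, 4 with the covariate and 16 to 1406 without 1 library. In sustained against intermittent hypoxia it was 5584, and 1 with the covariate. For the departure it was 66, and 192 without the filter, 540 with DESeq2, 272 with limma-voom, 290 with the block, 7 with the covariate and 2 to 241 without 1 library. Upper-quartile scaling shifted the split of calls in overlap hypoxia to 576 higher and 309 lower, against 496 and 420, and in overlap against intermittent hypoxia to 312 higher and 457 lower, against 466 and 429. The causes were not tested.

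Leaving out 1 library also turned the sign of some uncalled log2 fold changes. In sustained hypoxia against room air H2-Eb1 ran between -0.75 and 0.039, H2-DMa between -0.40 and 0.22 and Ciita between -0.55 and 0.34. In intermittent hypoxia Cd74 ran between -0.31 and 0.25, and in overlap hypoxia Ciita between -0.43 and 0.47. In overlap against sustained hypoxia H2-DMa ran between -0.47 and 0.046, Cd74 between -0.49 and 0.17 and Ciita between -0.089 and 0.40. In overlap against intermittent hypoxia H2-Aa ran between -0.63 and 0.012, H2-Ab1 between -0.25 and 0.21, H2-Eb1 between -0.34 and 0.29 and H2-DMb1 between -0.19 and 0.49. In sustained against intermittent hypoxia H2-Aa ran between -0.23 and 0.59 and Cd74 between -0.78 and 0.034. In the departure H2-Aa ran between -0.13 and 0.51, H2-Eb1 between -0.16 and 0.64 and Cd74 between -0.57 and 0.088. The log2 difference in the Cd74 to H2-Ab1 ratio, an alternative chosen after seeing the data, stayed between 1.16 and 1.49 in intermittent and between 0.64 and 0.97 in overlap hypoxia. For this ratio only leaving out a library was tried, and the ribosomal RNA share was not used as a covariate.

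The replicate numbers shared between groups are not said to pair the libraries, and the values do not settle whether they do. Over 24 same-number pairs the correlation of deviations from group means ran between -0.103 and 0.183, with 4 over 0.1. Its median was 0.037, against -0.020 over pairs with different numbers. Of 16 libraries, 8 correlated best with their own number. With the replicate block H2-Ab1 in overlap hypoxia had an edgeR adjusted p of 0.0267. With a prior count of 0.5 on the log scale, 9 of the 10 genes most like the class II genes were among the most like. Ciita, at 30 counts or fewer in a library, is limited by depth in every comparison. The same alternatives were applied to the calls of the other gene lists after seeing the data.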

Other observations

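The other marker lists cover liver cells outside the classical antigen-presenting types. Of 9 sinusoidal endothelial markers, 2 rose and 2 fell in intermittent hypoxia, against 18.9% and 18.3% of all tested genes, and 4 fell in overlap hypoxia, against 2.89%, with median log2 fold changes of 0.10 and -0.69. Stab2, a scavenger receptor of these cells, rose in intermittent hypoxia (log2 fold change 1.03, SE 0.21, edgeR adjusted p = 0.000786), while Clec4g, a lectin of the same cells, fell in intermittent hypoxia (-0.67, SE 0.18, edgeR adjusted p = 0.00627) and in overlap hypoxia (-1.36, SE 0.18, edgeR adjusted p = 0.000898). None of 6 tested T and NK cell markers was called in a comparison with room air. Of 6 hepatocyte markers, Apoa1 fell in intermittent hypoxia (-0.45, SE 0.17, edgeR adjusted p = 0.0448), where 18.3% of all tested genes fell. Its call was lost in 8 of the 16 runs without 1 library and under 3 other settings. None of the 6 was called in sustained or overlap hypoxia. With the ribosomal RNA share as a covariate none of these genes was called in intermittent hypoxia, and 3 sinusoidal endothelial markers were in overlap hypoxia. Without overlap replicate 1, and with no covariate, 2 of them fell in overlap hypoxia.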
